A study of Arabidopsis thaliana with 6 samples.

Results

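The mitochondrial genome of Arabidopsis thaliana was followed through the 146 rows of the expression table whose identifier begins with ATMG, out of 33532 rows in all. Of these rows, 42 averaged 1 FPKM or more across all 6 libraries and are described here by class, 60 were above 0 with a lower mean, and 44 were listed at 0 in every library. FPKM is the number of sequenced fragments per kilobase of transcript, scaled to the mapped total of the library, so it allows levels to be compared between genes of different length. RNA came from whole seedlings of the wild-type accession Col-0. Plates held solid 1/2 MS medium, a standard plant salt mix, either plain (control, 3 libraries) or with 5 µg/mL doxycycline (3 libraries), and seedlings stayed on them for 10 days. The series title frames the contrast as one of impaired mitochondrial translation. The design text calls the libraries biological replicates without saying whether plates or harvests were separate, so p-values measure the spread between these 6 libraries.

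The plant mitochondrial genome encodes core subunits of the respiratory chain and of ATP synthase, proteins that mature cytochrome c, some ribosomal proteins, 3 ribosomal RNAs and many open reading frames of unknown product. Its transcripts are made by phage-type RNA polymerases, spliced (in part in trans, by joining separately made pieces), edited and trimmed by nuclear-encoded proteins, and most mature plant mitochondrial transcripts carry no stable poly(A) tail. Doxycycline is a tetracycline that binds the small subunit of bacterial-type ribosomes, the kind found in mitochondria and plastids.

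Among the 42 rows were 14 for respiratory subunits, 2 for cytochrome c maturation, 4 for ribosomal proteins, 3 for ribosomal RNAs and 19 without a symbol. The respiratory rows were 10 pieces or genes of complex I, 2 of complex IV and 2 of ATP synthase. Symbols come from general knowledge of Arabidopsis locus names. They were checked against notes on nuclear copies in the RefSeq annotation and against transcript length. FPKM values turn into whole fragment numbers at the right length, but not only there. ATP4 and NAD5B, for instance, were also whole at 1 other reference length. Depth was fitted in part on these same rows at their reference lengths, so the length check is not independent of the symbols. Of the 23 rows with a symbol, 20 passed one check or the other. The other 3, RRN26, NAD1B and ATP6-2, rest on general knowledge alone. NAD1B and ATP6-2 were whole at 273 and 1385 bases, not at the 275 and 1050 bases of the reference. RRN26 had too many fragments in most libraries for the length check to apply.

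The sequences below are from the RefSeq assembly TAIR10.1, mitochondrial chromosome, 5′ to 3′. The first is the 22-base exon of nad5 (capitals, with 20 intron bases on each side) that is the whole of the row NAD5B, shown because its length decides what the FPKM of that row can mean. The second is the 118-base gene of the 5S ribosomal RNA (RRN5, minus strand, no part marked), the named transcript with the lowest p in the comparison. Each was found 1 time in the mitochondrial chromosome and 0 times in the nuclear and plastid chromosomes.
nad5 exon: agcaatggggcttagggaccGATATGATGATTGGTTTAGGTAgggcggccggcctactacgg
rrn5: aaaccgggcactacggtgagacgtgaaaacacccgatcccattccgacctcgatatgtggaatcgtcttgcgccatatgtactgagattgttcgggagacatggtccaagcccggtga

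The 3 control libraries were not alike. Control 1 lay near the doxycycline libraries for many genes, and controls 2 and 3 stood apart. All 42 rows had their lowest control value in control 1, as did 62.1% of the 19035 genes that averaged 1 FPKM or more and were tested. Control 2 held the highest value in 29 rows, as in 51.6% of all genes tested, and control 3 in the other 13. The shoot marker LHCB1.3, for a light-harvesting protein, stood at 38904 FPKM in control 1, at 6239 and 9304 in controls 2 and 3, and at 30168 to 33266 with doxycycline. RBCS1A, for the small subunit of Rubisco, split the libraries less, at 14208, 6793 and 11535 FPKM in controls and 12273, 13338 and 9318 with doxycycline. The root marker RCI3, for a peroxidase, was at 7.82, 59.9 and 31.0 FPKM in controls, and at 17.3 to 22.8 with doxycycline. EXPA7, an expansin of root hairs, had 0.696, 0.67 and 6.79 FPKM in controls and 0.783 to 1.97 with doxycycline, so control 2 was low for it. The remaining shoot marker, CHLI1, was at 178, 83.4 and 134 FPKM in controls and 284, 280 and 212 with doxycycline. For it every doxycycline library lay above every control, control 1 included. Summed levels of the 3 shoot markers, mostly LHCB1.3 and RBCS1A, were 53290, 13115 and 20973 FPKM in controls and 42726 to 44471 with doxycycline. Those of the 4 root markers, mostly RCI3, were 9.06, 62.1 and 43.1 in controls and 18.4 to 25.6 with doxycycline, and LRX1 and COBL9 averaged under 1 FPKM. A nuclear 18S ribosomal RNA row (AT3G41768) reached 10573 FPKM in control 2, where the remaining 5 libraries had 457 to 1833. The part of organ composition and of RNA selection in the results below was not tested, and in these bulk samples fewer cells of a type cannot be told apart from less RNA per cell. Depth, estimated from the smallest steps of the values, was 18790000 to 22110000 fragments per library.

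**Figure D1:**
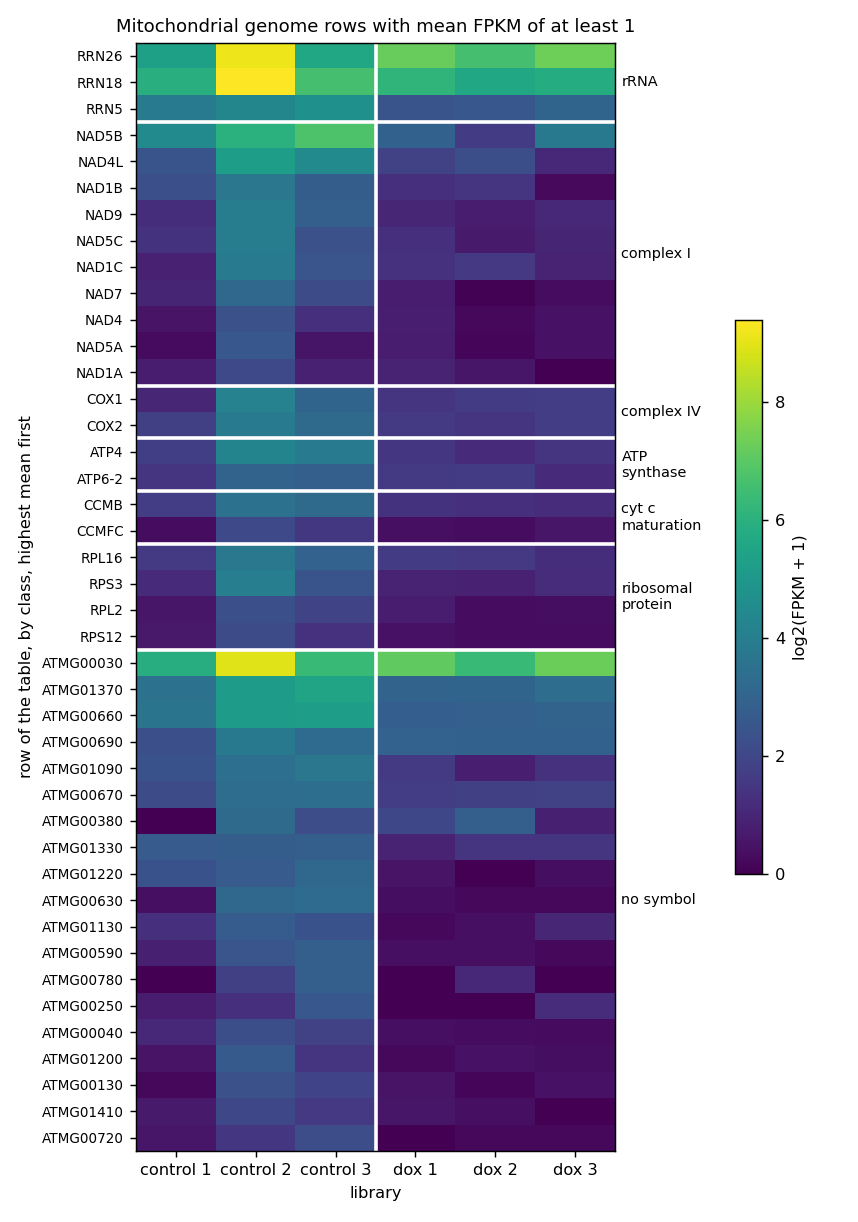
Level of each of the 42 rows in each library, as log2(FPKM + 1) by colour, grouped by class with the highest mean first. Columns are the 3 control and the 3 doxycycline libraries. Most rows are brightest in control 2 or control 3 and darkest with doxycycline. RRN26 and ATMG00030 are brighter with doxycycline than in control 1.

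Most rows of the mitochondrial genome were lower with doxycycline than in controls 2 and 3, and differed less and in both directions from control 1. In 24 of the 42 rows every doxycycline library lay below every control library, and in 0 rows above. The background over all genes tested was 25.7% below and 9.59% above. No row passed the test against all 3 controls (limma, 0 of 42 at an adjusted p under 0.05, lowest adjusted p = 0.121), as no gene of the table did (0% of 19035). At an unadjusted p under 0.05, limma gave 24 rows lower and 0 higher, against 18.8% and 6.83% of all genes. The median log2 difference over the 42 rows was -1.34, beside -0.29 over all genes. With median-of-ratios scaling, which brings the median of all genes to 0.00, the rows' median was -1.11. All 42 had a control mean of at least 1 FPKM and 20 had a doxycycline mean below 1. Those 20 entered only through their controls, so these counts and medians over the 42 describe them and no more. Of the 22 rows with a doxycycline mean of at least 1, 12 lay below every control.

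The controls were therefore also taken one at a time, as log2(FPKM + 1) of the mean doxycycline library minus the control. Medians over the 42 rows were -0.28, -2.14 and -1.54 against controls 1, 2 and 3 in turn. For all genes the same medians were -0.00, -0.54 and -0.30. Every doxycycline library lay below control 2 in 42 rows (68.9% of all genes) and below control 3 in 37 rows (59.3%). It lay above control 3 in 2 rows, RRN26 and ATMG00030, as in 27.1% of all genes. Against control 1 all doxycycline libraries lay below in 24 rows and above in 7, where 36.9% and 37% of all genes did so. With control 1 left out, limma called 35 rows lower and 0 higher, beside 35.6% and 9.77% of all genes. The 7 rows not called in that fit were RRN26, RRN18, NAD1A, NAD5A, ATMG00030, ATMG00250 and ATMG00380. With control 1 as the only control, it called 5 rows lower and 2 higher, beside 4.75% and 6.78%. In that fit the spread comes from the doxycycline libraries alone and the lone control is assumed to vary like them. In 41 of the 42 rows the SD of the log2 values was larger among the controls, so the p-values of that fit may be too small, and single rows are given below by their difference from control 1 only.

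**Figure D2:**
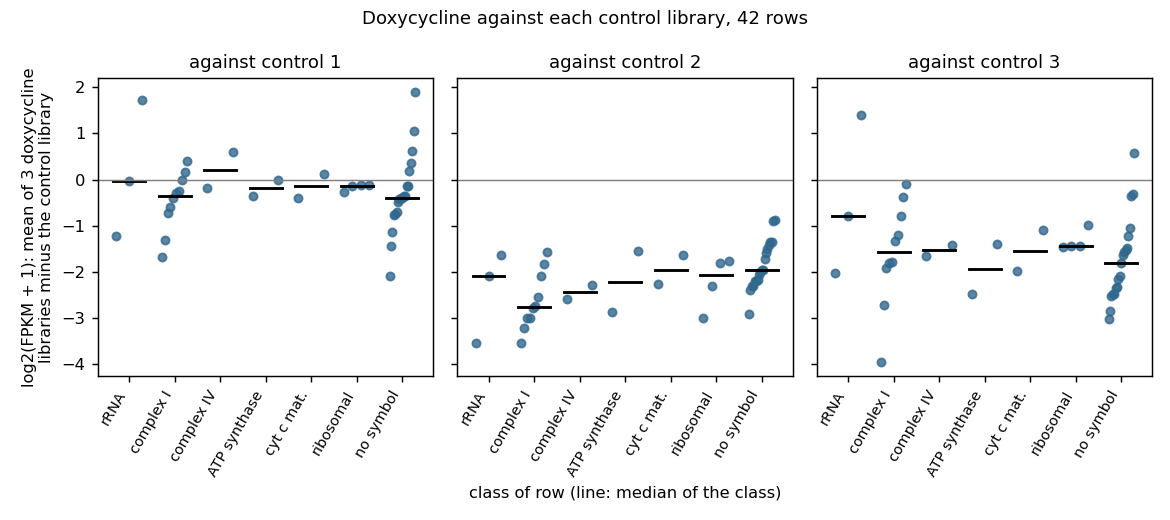
Difference of the mean doxycycline library from each control library in log2(FPKM + 1), 1 point per row, 1 column per class, with a line at the median of the class. Points scatter around 0 against control 1 (median of all rows -0.28) and lie below 0 against control 2 (median -2.14). Against control 3, 2 rows lie above 0.

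The long ribosomal RNAs of the mitochondrial ribosome had the highest means of all rows, and the 3 ribosomal RNAs differed from the controls in different ways. RRN26, the large-subunit RNA, had 39.0, 563 and 48.5 FPKM in controls 1 to 3, and 146, 96.6 and 158 with doxycycline. All 3 doxycycline libraries were above controls 1 and 3 and below control 2. The difference from all controls was 0.34 ± 0.949 (log2, SE, limma adjusted p = 0.819). This value was -0.35 without control 1 and 1.56 without control 2. From control 1 alone RRN26 differed by 1.72 (log2). RRN18, the small-subunit RNA, stood at 58.2, 669 and 97.5 FPKM in controls and at 69.2, 47.5 and 54.9 with doxycycline. Its doxycycline libraries lay on both sides of control 1 and below the remaining controls. The difference was -1.45 ± 0.825 (log2, SE, limma adjusted p = 0.282), and -0.04 against control 1 alone.

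RRN5, the 5S RNA printed above, stood at 13.9, 18.9 and 24.9 FPKM in controls and at 4.47, 4.84 and 7.23 with doxycycline. Every doxycycline library was below every control. At its 118 bases these values are 32, 42 and 65 fragments against 11, 12 and 18. The difference was -1.62 ± 0.278 (log2, SE, limma adjusted p = 0.121). From control 1 alone, the lowest control, RRN5 differed by -1.22 (log2). So short an RNA is poorly caught by fragment libraries in general, and its level cannot be set beside those of the long ribosomal RNAs.

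Within a library, a ratio of 2 rows is free of the scaling of that library. The ratio of RRN26 to RRN18 was 0.670, 0.841 and 0.497 in controls 1 to 3 and 2.11, 2.03 and 2.87 with doxycycline. All 3 doxycycline ratios lay above all 3 control ratios, control 1 included. Means were 2.34 ± 0.464 against 0.670 ± 0.172 (SD, n = 3 each), a log2 difference of 1.82 (two-sided exact permutation test, p = 0.1, the smallest that 3 against 3 allows). This ratio was chosen after the values were seen. For comparison, 176 of the 861 pairs of described rows (20.4%) had ratios, here with 1 added to each FPKM, that did not overlap between the groups. Ordered by the log2 gap between the groups, RRN26 with RRN18 was the fourth pair, at 1.26. RRN26 was higher relative to 11 of the other 41 rows without overlap, and lower relative to 0.

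Of 10 listed nuclear and plastid ribosomal RNA rows, which also lack a stable poly(A) tail, 8 were measured. None of the 8 lay below or above every control, and their medians against controls 1, 2 and 3 in turn were 0.27, -2.46 and 1.48. The plastid 23S to 16S ratio was 0.541, 0.778 and 1.82 in controls and 1.07, 1.13 and 0.877 with doxycycline (ATCG00950 over ATCG00920). These groups overlap. For the other plastid copy (ATCG01180 over ATCG01210) it was 0.635, 1.48 and 1.35 in controls and 1.59, 1.56 and 1.88 with doxycycline (two-sided exact permutation test, p = 0.1, the smallest possible), so that the doxycycline ratios lay just above. Reads of the near-identical plastid copies may have been split between their rows.

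**Figure D3:**
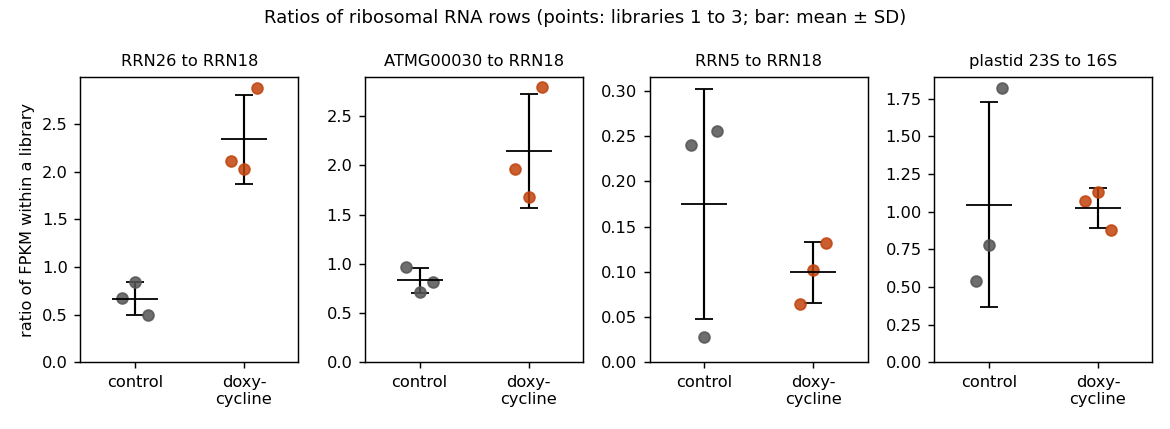
Ratio of FPKM values within each library for 3 pairs of mitochondrial rows and for the plastid 23S and 16S RNAs, each panel with its own axis from 0. Points are libraries, and bars are mean ± SD of 3. For RRN26 to RRN18 the doxycycline libraries (2.03 to 2.87) lie above the controls (0.497 to 0.841). RRN5 to RRN18 and the plastid ratio drawn here (ATCG00950 over ATCG00920) overlap. The ratio of the other plastid copy is not drawn and did not overlap (0.635 to 1.48 in controls, 1.56 to 1.88 with doxycycline).

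ATMG00030, a row without a symbol whose values are whole fragments at 324 bases, had levels close to those of RRN26. It stood at 56.4, 481 and 79.6 FPKM in controls and at 136, 79.8 and 153 with doxycycline, for 356 to 2926 fragments. Its ratio to RRN26 was 1.45, 0.854 and 1.64 in controls and 0.931, 0.827 and 0.972 with doxycycline. Relative to RRN18 it was higher in all doxycycline libraries, at 1.96, 1.68 and 2.79 against 0.970, 0.718 and 0.816. The reference used here does not place this identifier, so whether it lies in or beside the RRN26 transcript is not given here. Together RRN26, RRN18 and ATMG00030 made up 55.8%, 77.3% and 33.6% of the summed FPKM of the 146 rows in controls and 83.1%, 76.8% and 82.5% with doxycycline. Without these 3 rows, the sum was 121, 502 and 447 FPKM in controls and 71.3, 67.5 and 77.6 with doxycycline. That remainder was lower in each doxycycline library than in each control. It and the shares above include NAD5B, the 22-base exon, at 21, 62.9 and 107 FPKM in controls and 6.55, 2.16 and 12.9 with doxycycline. The 19 described protein rows without NAD5B summed to 28.6, 216 and 109 FPKM in controls and 24.4, 21.6 and 17.5 with doxycycline. The sum over all 146 rows was 275, 2215 and 672 in controls and 422, 291 and 443 with doxycycline, so that it overlapped, with every doxycycline library above control 1.

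Complex I, the NADH dehydrogenase that feeds electrons into the respiratory chain, had 10 of its 14 rows described. In 6 of them every doxycycline library lay below every control (25.7% of all genes), and 3 of the 6 passed the filter only through their controls. The class median was -1.65 against all controls and -0.35 against control 1. Only 4 of the 10 rows had a doxycycline mean of at least 1 FPKM, so these medians describe the rows and no more. NAD4L, a small membrane subunit, stood at 4.41, 37.1 and 20.7 FPKM in controls and at 2.54, 3.77 and 1.10 with doxycycline. Its groups did not overlap, with 26 to 211 fragments in a control library and 7 to 24 with doxycycline. The difference was -2.33 ± 0.706 (log2, SE, limma adjusted p = 0.142). NAD9 and NAD7, subunits of the matrix arm, also lay below every control, at doxycycline means of 0.915 ± 0.220 and 0.309 ± 0.310 FPKM against 7.33 ± 6.59 and 4.08 ± 3.47 (SD, n = 3 each). In control 1, however, NAD9 was at 1.34 FPKM, on 15 fragments against 8 to 13 per doxycycline library. It differed by -0.30 (log2) from that control alone, and NAD7 by -0.60. NAD7 rested on 1 to 16 fragments per doxycycline library, against 22 in control 1. NAD4, a proton-pumping membrane subunit, overlapped between groups.

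The complex I genes nad1 and nad5 are trans-spliced from 3 pieces each, listed as separate rows, and the pieces had different levels. For nad1, NAD1A stood at 0.664, 3.16 and 0.818 FPKM in controls and at 0.868, 0.492 and 0 with doxycycline, and the groups overlapped. NAD1B stood at 3.95, 12.3 and 5.8 in controls and at 1.41, 1.74 and 0.174 with doxycycline, every one below every control. Its difference was -1.95 ± 0.477 (log2, SE, limma adjusted p = 0.130). NAD1C stood at 0.808, 13.1 and 4.55 in controls and at 1.51, 1.94 and 0.895 with doxycycline. There all doxycycline libraries lay above control 1 and below controls 2 and 3. Thus against control 1 the 3 pieces of nad1 differed by -0.24, -1.32 and 0.41 on the log2 scale. They rested on 0 to 23 fragments per library for NAD1A, 1 to 63 for NAD1B and 5 to 78 for NAD1C. For NAD1C, control 1 had 5 fragments and doxycycline library 3 had 6, so their order rests on few fragments.

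For nad5, NAD5A stood at 0.213, 4.82 and 0.438 FPKM in controls and at 0.664, 0.099 and 0.361 with doxycycline, and the groups overlapped. NAD5C stood at 1.61, 14.7 and 4.01 in controls and at 1.42, 0.614 and 0.963 with doxycycline, all below the controls. Control 1 had 17 fragments and doxycycline library 1 had 16, so that their order rests on 1 fragment and the scaling to depth. With a doxycycline mean of 0.998 FPKM, NAD5C passed the filter only through its controls. NAD5B, the 22-base exon printed above, had the highest mean FPKM of the protein-coding rows, at 21, 62.9 and 107 in controls and 6.55, 2.16 and 12.9 with doxycycline. Its groups did not overlap and the difference was -2.94 ± 0.707 (log2, SE, limma adjusted p = 0.129). These levels are 9, 26 and 52 fragments in controls and 3, 1 and 6 with doxycycline, divided by a length far below that of a fragment. FPKM of this row therefore cannot be compared with that of NAD5A and NAD5C.

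Complex IV, the cytochrome c oxidase that passes electrons to oxygen, had 2 of 3 rows described. COX1, its catalytic core, stood at 1.00, 17.1 and 7.05 FPKM in controls and at 1.73, 2.13 and 2.27 with doxycycline. The doxycycline libraries all lay above control 1 and below controls 2 and 3. These were 31, 509 and 247 fragments in controls and 57, 71 and 76 with doxycycline, and the difference was -1.13 ± 0.730 (log2, SE, limma adjusted p = 0.331). COX2, which takes electrons from cytochrome c, stood at 2.43, 13.6 and 8.49 FPKM in controls and at 2.02, 1.76 and 2.24 with doxycycline. All of the latter lay below every control, though control 1 and doxycycline library 3 each had 37 fragments, so that their order rests on the scaling to depth. The difference was -1.38 ± 0.511 (log2, SE, limma adjusted p = 0.168). COX1 to COX2 ratios overlapped between the groups (two-sided exact permutation test, p = 0.6, where 0.1 is the smallest possible).

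ATP synthase, the enzyme that makes ATP from the proton gradient, had 2 of 6 rows described. ATP4, a subunit of its membrane-bound stalk, stood at 2.31, 18 and 13.5 FPKM in controls and at 1.82, 1.23 and 1.72 with doxycycline, every one below the controls. Its difference was -1.91 ± 0.628 (log2, SE, limma adjusted p = 0.15). Control 1 had 26 fragments against 22, 15 and 21 with doxycycline, a difference of -0.36 (log2) from that control alone. ATP6-2, one of the copies of the proton-channel subunit, stood at 1.74, 6.92 and 6.21 in controls and at 2.01, 2.1 and 1.16 with doxycycline. It overlapped control 1. In the reference gene of 1050 bases, which the row's length did not match, 71.1% of 50-base windows occur again in the mitochondrial genome. Reads may therefore have been split with ATP6-1, which was listed at 0 throughout.

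Cytochrome c maturation proteins attach heme to cytochrome c, and 2 of their 5 rows were described. CCMB, part of the exporter complex, stood at 2.23, 10.7 and 8.59 FPKM in controls and at 1.62, 1.38 and 1.3 with doxycycline, below every control. The difference was -1.55 ± 0.484 (log2, SE, limma adjusted p = 0.143). Control 1 had 27 fragments against 21, 18 and 17 with doxycycline, a difference of -0.41 (log2) from that control alone. CCMFC, part of the heme ligation complex, stood at 0.227, 3.17 and 1.90 in controls and at 0.318, 0.245 and 0.489 with doxycycline. All of the latter lay above control 1, on 7 to 14 fragments against 6.

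Ribosomal proteins encoded in mitochondria had 4 of 7 rows described. RPL16 of the large subunit stood at 2.00, 12.7 and 6.70 FPKM in controls and at 2.13, 1.94 and 1.32 with doxycycline. RPS3 of the small subunit stood at 1.23, 15.2 and 4.47 in controls and at 0.919, 0.825 and 1.31 with doxycycline. Both overlapped control 1 and lay below controls 2 and 3. Differences were -1.30 ± 0.533 for RPL16 and -1.54 ± 0.665 for RPS3 (log2, SE, limma adjusted p = 0.188 and 0.200). RPS12 lay below every control, on 2 to 3 fragments per doxycycline library against 4 in control 1, and RPL2 did not. With a doxycycline mean of 0.295 FPKM, RPS12 passed the filter only through its controls. The class median against control 1 was -0.13.

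The 19 rows without a symbol had a median of -1.29 against all controls and -0.39 against control 1, and in 13 of them every doxycycline library lay below every control (25.7% of all genes). Of these 13, 8 passed the filter only through their controls. Among the 8 rows of this class with a doxycycline mean of at least 1 FPKM, 5 lay below every control. ATMG01220, which the reference matches to a protein of unknown function, stood at 4.21, 5.45 and 7.80 FPKM in controls and at 0.421, 0 and 0.277 with doxycycline. No doxycycline value came near a control, with 28, 35 and 59 fragments against 3, 0 and 2. The difference was -2.45 ± 0.306 (log2, SE, limma adjusted p = 0.121). From control 1 alone it differed by -2.09 (log2). With a doxycycline mean of 0.233 FPKM, this row passed the filter only through its controls. ATMG01330 was even among the controls and apart from them with doxycycline, at 5.49, 5.82 and 6.12 FPKM against 0.875, 1.73 and 1.73. These were 41, 42 and 52 fragments against 7, 14 and 14. Its difference was -1.50 ± 0.253 (log2, SE, limma adjusted p = 0.121), and -1.43 from control 1 alone.

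Both rows have a copy on chromosome 2 according to the reference, and the copies' rows had the same order of groups. The copy of ATMG01330 (AT2G07808) stood at 7.92, 23.4 and 18.8 FPKM in controls and at 3.08, 6.48 and 5.00 with doxycycline. The copy of ATMG01220 (AT2G07798) stood at 0.451, 1.22 and 0.886 in controls and at 0.097, 0.129 and 0.128 with doxycycline. All doxycycline libraries lay below all controls in each. Which of the 2 places gave the fragments was not tested.

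Further rows without a symbol also lay below every control. ATMG01370 stood at 10.6, 35.6 and 43.2 FPKM in controls and at 7, 7.22 and 9.32 with doxycycline. ATMG00660 stood at 11.1, 35.5 and 36.3 in controls and at 5.97, 6.34 and 6.85 with doxycycline, a difference of -0.71 (log2) from control 1 alone. In both rows the doxycycline libraries were close to each other and nearest to control 1. ATMG00670 stood at 3.54, 9.32 and 9.61 against 2.26, 2.47 and 2.58 FPKM, and ATMG01090, matched by the reference to a copy of ATP synthase subunit 9, at 4.17, 9.85 and 12.3 against 2.01, 0.723 and 1.56. ATMG01130 stood at 1.44, 5.64 and 4.09 against 0.15, 0.296 and 1.03 FPKM. ATMG00040 stood at 1.14, 3.82 and 2.48 against 0.304, 0.251 and 0.200 FPKM. Both of these rows had doxycycline means below 1 FPKM and passed the filter only through their controls. In these 4 rows no doxycycline library reached control 1, the lowest control, and limma adjusted p-values against all controls were 0.125 to 0.142.

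ATMG00690, like COX1, RRN26 and ATMG00030, lay above control 1 in every doxycycline library. It stood at 3.91, 13.0 and 8.76 FPKM in controls and at 6.77, 6.51 and 6.56 with doxycycline, on 99 to 102 fragments. The doxycycline libraries were close to each other and below controls 2 and 3. Against all controls the difference was -0.20 ± 0.379 (log2, SE, limma adjusted p = 0.733), which changed sign to 0.10 with median-of-ratios scaling and 0.18 with quantile normalization. From control 1 alone it differed by 0.63 (log2). Relative to 32 of the other 41 rows its ratio was higher with doxycycline without overlap, more than for any other row. ATMG00380, whole at 62 bases, stood at 0, 8.59 and 3.65 FPKM in controls and at 3.10, 6.14 and 0.765 with doxycycline, from at most 10 fragments, and its groups overlapped.

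Whether a gene was measured at all went with how much of its sequence also stands in the nuclear chromosomes. Of 40 named genes or pieces long enough for the count, 9 shared under 1% of their 50-base windows with the nuclear chromosomes of the reference, and all 9 had a mean of at least 1 FPKM (3.89 to 175, median 6.44). Among 18 that shared 100%, 4 reached that mean (median 0.145, highest 1.18) and 4 were listed at 0 in every library. The first set holds COX1, ATP4, NAD9, NAD4L, NAD5C, CCMB and the 3 ribosomal RNAs. The second holds apocytochrome b of complex III (COB), COX3, ATP1, ATP9, NAD3, NAD6, CCMC and RPL5. How fragments that match both places were assigned is not given in the sources used here, so a low value of these rows does not by itself show a low transcript level. For instance, ATP1 was at 0, 0.314 and 0.089 FPKM in controls and 0.031, 0.062 and 0.031 with doxycycline. Its nuclear copy AT2G07698 was at 0.465, 6.48 and 2.47 in controls and 0.434, 0.645 and 0.390 with doxycycline. Here the copy held the larger value in every library, but copies differed. Of 53 rows with a copy in the table, 25 had the higher mean in the copy, 27 in the mitochondrial row, and 1 pair was at 0 in both. Of the 150 rows of the chromosome 2 stretch that carries the copy of the mitochondrial genome, 20 had a mean of at least 1 FPKM. In 10 of those 20 every doxycycline library lay below every control and in 0 above (25.7% and 9.59% of all genes), with a median of -1.16 against all controls and -0.30 against control 1. The stretch was taken as a range of locus numbers, so the 20 include genes with no noted mitochondrial match. For instance, AT2G07680, a multidrug resistance-associated protein, is among the 10, and AT2G07690, a minichromosome maintenance family protein, is not.

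**Figure D4:**
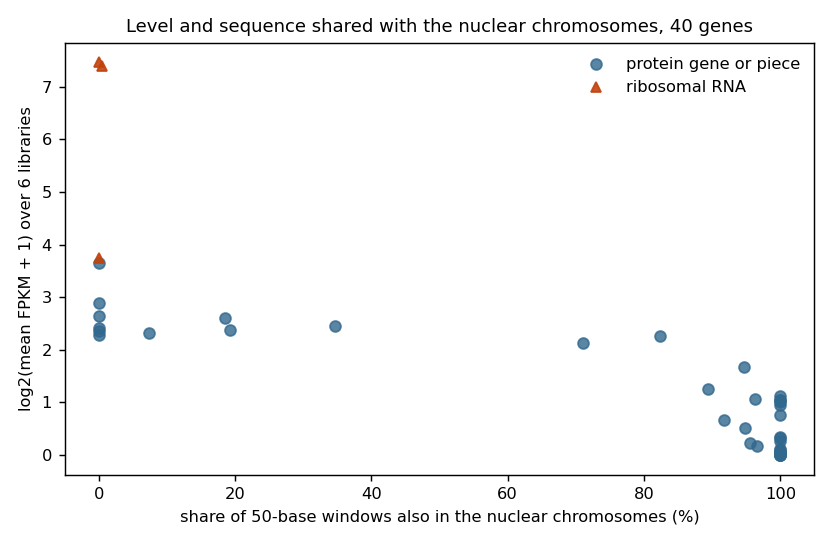
Mean level over the 6 libraries as log2(mean FPKM + 1) against the percentage of 50-base windows of the gene that are also in the nuclear chromosomes, for 40 named genes or pieces (NAD5B is too short). Genes that share under 1% lie at a mean of 3.89 FPKM or more. Genes that share 100% lie at 1.18 FPKM or less.

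The plastid genome and the nuclear genes that serve mitochondrial RNA were set beside these rows. Of 95 plastid rows with a mean of at least 1 FPKM, 6 lay below every control and 8 above, beside 25.7% and 9.59% of all genes, and their median was -0.07 against all controls and 0.52 against control 1. Of 18 listed nuclear genes for mitochondrial transcription, splicing, editing and decay, 16 were measured. None of the 16 was called by limma (0 at an adjusted p under 0.05, 2 lower and 0 higher at an unadjusted p under 0.05), 5 lay below every control and 0 above, a share near the 25.7% of all genes for the former. Their median was -0.47. RPOTM, the RNA polymerase of mitochondria, stood at 2.33, 11.3 and 9 FPKM in controls and at 3.55, 3.56 and 3.27 with doxycycline. PMH2, a DEAD-box RNA helicase of mitochondria, stood at 10.9, 26.5 and 22.3 in controls and at 9.38, 9.62 and 9.02 with doxycycline. PMH2 lay below every control and RPOTM only below controls 2 and 3. For the 16 genes the medians against controls 1, 2 and 3 in turn were 0.20, -1.09 and -0.60.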

How the data were processed

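RNA-seq was analysed from 3 control and 3 doxycycline libraries, grouped by the labels' treatment. The authors deposited 1 table of FPKM values, with no unit in its header. The unit was read from the values. Per the submitters' processing notes, TopHat2 2.1.0, Cufflinks 2.2.1 and the TAIR10 genome were used, with no roles given. RNA was extracted with TRIzol and the VAHTS Universal V6 kit was used, per the labels' protocols. Selection of messenger RNA, strand and the handling of reads that map to several places are not stated there. Fragments of a gene and of one that overlaps it on either strand may therefore be mixed.

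The 19035 genes averaging 1 FPKM or more were tested with limma 3.58.1 (R 4.3.3) on log2(FPKM + 1). The test was two-sided, used an abundance trend without covariates, and its p-values were adjusted by Benjamini-Hochberg over all 19035, with a threshold of 0.05. This scale understates changes of low genes. The limma step was tested on simulated data in which both groups had the spread of the doxycycline libraries. In 41 of the 42 rows the controls spread more, so that test does not cover this design. Members and lists were chosen with earlier results of these data known. Values per library are given for the 2 rows of highest mean in each class, the 10 of lowest adjusted p, those above control 1 in every doxycycline library, and pieces of trans-spliced genes. Others were chosen after their values were seen.

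Fragment numbers are FPKM times the length and the estimated depth, whole within at most 0.12 in each library under 5000 fragments. For rows without a reference length the shortest such length was taken. Depth follows from these steps, not from reads. Because only part of the nuclear rows gave whole fragments, no count model was run. Shared sequence was counted in exact windows of 50 bases on either strand in assembly TAIR10.1, whose coordinates are not printed because the submitters name another build. Same-numbered libraries did not deviate together (correlations -0.002, -0.014 and -0.137). So few libraries cannot show whether those of the same number were grown or harvested together, which the labels do not state. There were 16 alternatives: pseudocounts, filters, scalings, robust variances, a replicate block, each library left out, and control 1 alone. Python 3.11.15, pandas 2.3.3 and scipy 1.17.1 were used.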

Additional observations from a re-analysis of the deposited data

How the results depend on the processing

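Control 1 decided how many rows passed the test. Over the fits that left out 1 library each, the number called ranged from 0 to 35 of 42, the rows below every control from 24 to 37 and the median from -1.88 to -0.97 (log2). The 35, the 37 and the -1.88 all came without control 1. With control 1 as the only control 7 rows were called and the median was -0.28. The median was -2.19 with a pseudocount of 0.01. Without a filter 38 of 102 rows lay below every control, and with a mean of at least 5 FPKM 8 of 13, where other rows enter. The share of all genes below every control was counted only with all 6 libraries and a mean of at least 1 FPKM, at 25.7%. It is not given for these filters or for the fits that left out 1 library. The replicate block gave 0 called and a median of -1.34, and changed no call. The RRN26 to RRN18 log2 ratio difference ranged from 1.62 to 2.00 with 1 library left out.

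Of 448 alternative values of the 29 rows given by library, 18 changed sign. With 1 library left out, RRN26 ranged from -0.35 (without control 1) to 1.56 (without control 2), with -0.19 without control 3. In the same fits ATMG00030 ranged from -0.72 to 0.81, with 0.15 without doxycycline library 2, and ATMG00690 from -0.62 to 0.14. ATMG00380 ranged from -0.84 to 0.79, with -0.40 without doxycycline library 2, and NAD5A from -1.09 to 0.04. The lowest of each was without control 1 and the highest without control 2. ATMG00030 was 0.20 and ATMG00690 0.10 with median-of-ratios scaling, ATMG00690 0.18 with quantile normalization, and ATMG00380 -0.04 when scaled to the nuclear sum. Against control 1 alone ATMG00030 was 1.06, ATMG00690 0.63, NAD5A 0.16, CCMFC 0.13, NAD1C 0.41 and COX1 0.60. The cause was not tested. Rows under 30 fragments per doxycycline library are limited by depth.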

Other observations

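Within the summed FPKM of the 19 described protein rows (NAD5B left out), the share of most rows overlapped between the groups. RPL16, a protein of the large ribosomal subunit, took 6.99%, 5.89% and 6.16% in controls and 8.74%, 8.97% and 7.52% with doxycycline. ATP6-2, a proton-channel subunit, took 6.10%, 3.20% and 5.71% in controls and 8.24%, 9.70% and 6.64% with doxycycline. In both the doxycycline share lay above every control. NAD7 of complex I took 3.34%, 3.62% and 3.19% in controls and 2.65%, 0.185% and 1.37% with doxycycline, below every control. It rested on 16, 1 and 6 fragments in the doxycycline libraries. The other 16 rows overlapped. These rows were named after their values were seen, and shares of 1 sum are not independent of each other. No like count over all genes stands beside them, so the shares describe these rows and no more.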
